A study of Mus musculus with 16 samples.

Results

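The nuclear pore genes and the genes of the carriers that pass through the pore were followed through the activation of mouse CD8+ T cells in culture. They were taken by name from the matrix of raw counts, as the symbols that begin with Nup, Nupl, Kpna, Kpnb, Ipo, Xpo or Tnpo and a number. This gave 45 of the 34573 symbols of the matrix, 23 nucleoporin symbols and 22 transport receptor symbols. Of the 45, 43 passed the filter on low counts, as did 14332 symbols in all. The 2 that did not were Kpna7, with 2 counts over all libraries, and Nup62cl, with 5 counts in 1 library. RNA-seq was made from 12 libraries, 3 for each of 4 states, each from 0.2 M cells of C57BL/6 mice, an inbred laboratory strain. Tn cells were naive CD8+ T cells from spleen at day 0, sorted as CD44- and CD62L+. The other cells had been cultured with antibodies to CD3e, a part of the antigen receptor, and to the co-stimulatory receptor CD28, at 10 µg/ml each, and then also with the growth factor IL-2 at 300 U/ml. Of these, the CD8+ cells sorted on day 2 with PD-1 but without TIM-3 (PD-1+, TIM-3-) are Teff1. The CD8+ cells of day 5 are Teff2, again with PD-1 but without TIM-3, and Tex, with both of these inhibitory receptors (PD-1+, TIM-3+). Tex is the name in the labels for cells made in culture, without an infection or tumour. Nothing in the labels says that replicates came from separate mice or cultures, so each p-value measures the spread between these libraries, which may be technical.

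The nuclear pore is a ring of many copies of nucleoporins set in the nuclear envelope. Inner and outer rings form its scaffold, nucleoporins with phenylalanine-glycine repeats fill the channel, and filaments reach into the cytoplasm and form a basket in the nucleus. Transport receptors of the importin beta family bind cargo and cross this channel, importin alpha proteins link cargo with a classical import signal to importin beta, and the GTPase Ran sets the direction. A naive T cell is small and resting, and it grows and divides within days of activation.

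Totals were 14.67 to 21.16 M counts per library, and levels below are CPM, counts divided by the library total after scaling by TMM factors and set to a common total. A total of 3 counts in 1 library corresponds to 0.143 to 0.204 CPM, which covers counting error only. The CD8 T cell markers Cd8a, Cd8b1, Cd3e, Cd3d, Cd3g and Trac were present in all 12 libraries, with sums of 2041 to 4252 CPM. Markers of other spleen cells were also present in the Tn libraries. They were higher in replicates 1 and 3 than in replicate 2, except that erythroid markers were lowest in replicate 3, and replicate 2 lay above each activated library in B cell, macrophage and erythroid markers. The 7 B cell markers summed to 1215, 579 and 2008 CPM in Tn replicates 1, 2 and 3 and to between 89.3 and 305 CPM in the activated libraries, where up to 4 of the 7 were at 0. The 4 genes of MHC class II presentation (H2-Aa, H2-Ab1, H2-Eb1 and Cd74) summed to 1343, 112 and 2028 CPM in Tn and to 29.1 to 121 CPM in the activated libraries. The 8 macrophage markers gave 277, 72.5 and 144 CPM in Tn and 4.28 to 11.6 CPM elsewhere, with 1 to 6 of the 8 at 0. The 6 erythroid markers gave 179, 167 and 76.7 CPM in Tn and 0.323 to 7.47 CPM elsewhere, and the 3 CD4 T cell markers 44.2, 5.79 and 48.9 CPM in Tn, against 1.88 to 12.0 CPM elsewhere. The 6 genes of an NK list, some of which CD8 T cells also express, gave 202, 88.8 and 340.1 CPM in Tn and 96.4 to 488 CPM elsewhere.

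The promoters of 36 of the 45 genes were found in a RefSeq table of assembly GRCm38.p6. The 250 bases before the first listed start site follow for the 4 genes with the largest rises at day 2 that have an entry, and for Kpna4 and Nup153, which did not rise. Capitals mark matches on either strand to CCAAT, the box bound by NF-Y, to TTTGAA, the core of the element called CHR that is known from genes of cell division, and to CGCATGCG, the core of the NRF1 site.
Kpna2 (chr11:106999526-106999775, minus strand): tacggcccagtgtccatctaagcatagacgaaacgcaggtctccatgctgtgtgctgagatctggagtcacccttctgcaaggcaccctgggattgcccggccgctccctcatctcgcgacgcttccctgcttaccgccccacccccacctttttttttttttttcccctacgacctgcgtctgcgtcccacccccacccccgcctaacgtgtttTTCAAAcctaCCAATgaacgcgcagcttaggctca
Nup37 (chr10:88146742-88146991, plus strand): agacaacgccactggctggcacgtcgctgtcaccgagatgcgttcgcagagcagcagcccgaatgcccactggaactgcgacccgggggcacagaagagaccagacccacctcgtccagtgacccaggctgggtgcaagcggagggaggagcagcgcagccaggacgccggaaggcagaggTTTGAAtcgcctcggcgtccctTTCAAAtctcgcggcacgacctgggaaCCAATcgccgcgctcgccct
Ipo5 (chr14:120910944-120911193, plus strand): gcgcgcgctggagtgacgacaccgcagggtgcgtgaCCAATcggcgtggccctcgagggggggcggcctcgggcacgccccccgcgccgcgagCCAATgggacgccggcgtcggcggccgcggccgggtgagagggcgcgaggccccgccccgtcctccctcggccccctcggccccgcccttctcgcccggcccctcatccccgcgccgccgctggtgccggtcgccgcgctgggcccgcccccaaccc
Nup62 (chr7:44815838-44816087, plus strand): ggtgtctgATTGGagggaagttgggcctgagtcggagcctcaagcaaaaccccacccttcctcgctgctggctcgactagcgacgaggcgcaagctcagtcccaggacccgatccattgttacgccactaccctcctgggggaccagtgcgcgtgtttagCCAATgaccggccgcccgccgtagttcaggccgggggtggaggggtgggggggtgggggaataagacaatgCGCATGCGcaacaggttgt
Kpna4 (chr3:69127093-69127342, minus strand): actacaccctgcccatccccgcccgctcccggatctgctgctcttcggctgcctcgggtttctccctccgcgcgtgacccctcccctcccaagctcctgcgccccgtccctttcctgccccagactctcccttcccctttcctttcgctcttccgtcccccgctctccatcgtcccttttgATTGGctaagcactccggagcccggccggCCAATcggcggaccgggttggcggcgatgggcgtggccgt
Nup153 (chr13:46727850-46728099, minus strand): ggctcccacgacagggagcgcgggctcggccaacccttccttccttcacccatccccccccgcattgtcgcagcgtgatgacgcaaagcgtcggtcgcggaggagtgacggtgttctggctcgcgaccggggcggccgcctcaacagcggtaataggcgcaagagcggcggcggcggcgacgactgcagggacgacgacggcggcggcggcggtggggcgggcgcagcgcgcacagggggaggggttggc

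Kpna2 and Nup37 both hold the CHR letters and a CCAAT box close to the start site. In Kpna2 the CHR match lies 35 bases and a CCAAT match 25 bases before the start site. In Nup37 they lie 47 and 69 bases (CHR) and 20 bases (CCAAT) before the first start site. Both motifs also lie before the start site of Kpna7, Nup98 and Tnpo2. Of these, Kpna7 had 2 counts over all libraries, and Nup98 and Tnpo2 were higher at day 2 by 0.75 and 0.43 on the log2 scale. Ipo5, Nup62 and Kpna4 each hold 2 CCAAT matches before the start site, so that the box is found with and without a rise, and Nup62 also holds an NRF1 match 19 bases before it. A match is a description of the sequence and no evidence that a factor binds. In the whole window of 300 bases, 250 before and 50 after the start site, CCAAT was found in 58.3% of the 36 genes and in 41.1% of the 27025 genes of the table. CHR was found in 19.4% against 20.2%, and CGCATGCG in 13.9% (Nup107, Nup50, Nup62, Nupl1 and Xpo5) against 2.07%. The E-box CACGTG, which MYC and related factors can bind, was found in 16.7% against 8.09%, and the ETS letters CCGGAAGT in 11.1% against 4.31%. An E2F site, TTTGGCGC or TTTCCCGC, was found in 2.78% (Nup210) against 1.8%. All letters were searched on both strands, and the letters of no motif contain those of another.

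The first comparison asks how the 2 days of activation change expression. At day 2, 32 of the 43 nuclear pore and transport receptor genes tested were higher in Teff1 than in Tn, and 0 were lower (edgeR quasi-likelihood test, adjusted p under 0.05). Over all 14332 genes tested, 24.5% were higher and 24.4% lower. For the lower direction the count at an unadjusted p under 0.05 was also 0, and DESeq2 and limma called 0. The median log2 fold change of the 43 genes was 0.80, with a range of -0.22 to 3.32, and that of all genes tested was -0.06. A difference of at least 2-fold was reached by 18 of the 32. The 45 genes together took 0.405, 0.421 and 0.410% of the counts in the 3 Tn libraries and 0.648, 0.754 and 0.765% in the 3 Teff1 libraries. The 2 states did not overlap for 35 of the 43 genes, 34 with each Teff1 library above each Tn library and 1, Ipo8, with each below. Of all genes tested, 29.6% lay wholly above and 31.9% wholly below in this way. Of the nucleoporins 17 of 22 were higher, with a median log2 fold change of 1.42, and of the receptors 15 of 21, with a median of 0.67; the difference between these classes was not tested.

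**Figure D1:**
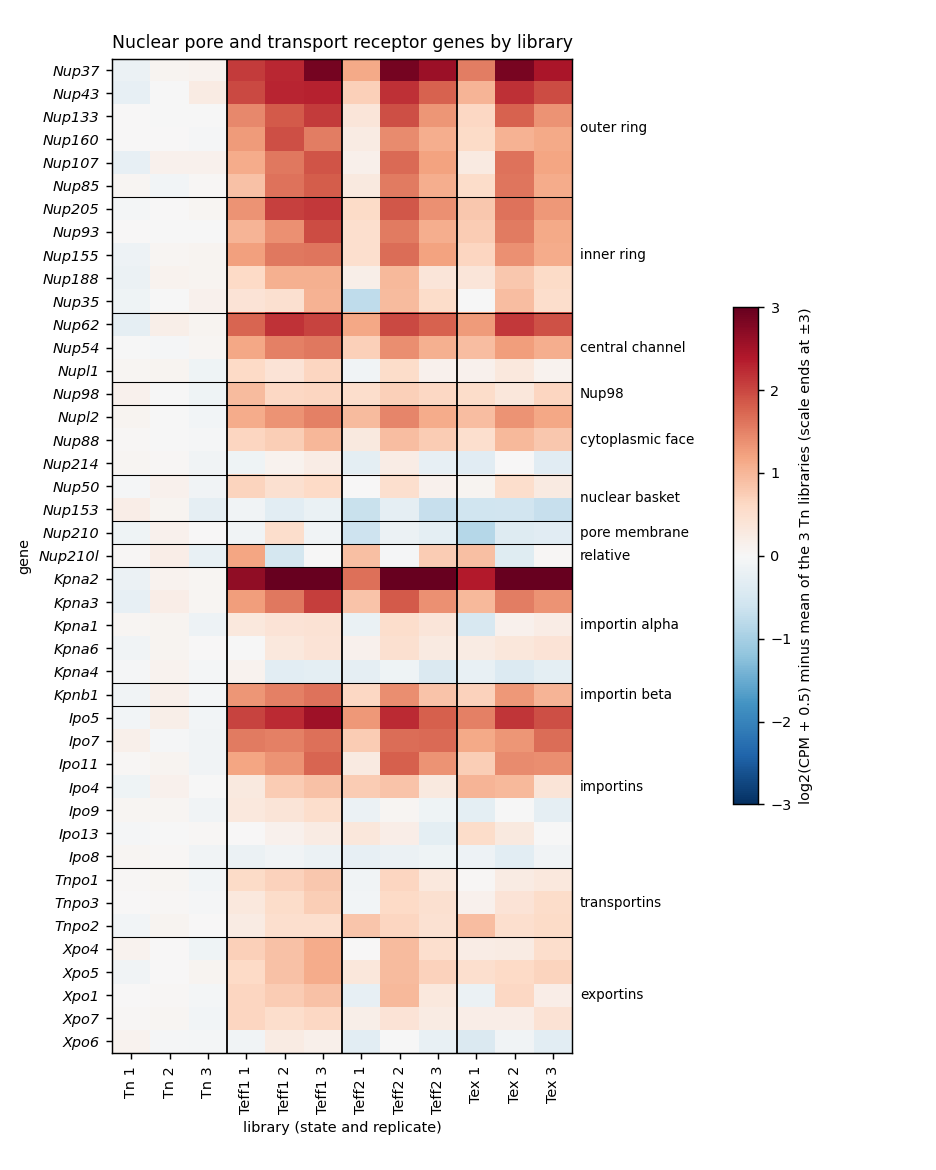
Level of the 43 genes tested (rows, by place in the pore or receptor class) in each of the 12 libraries (columns), as log2(CPM + 0.5) minus the mean of the 3 Tn libraries, with red higher and blue lower. The outer ring genes, Kpna2 and Ipo5 lie above the Tn mean in every activated library, though Nup107 and Nup160 only slightly in Teff2 replicate 1. For these genes replicate 1 of Teff2 and of Tex is paler than replicates 2 and 3, and Nup153 is pale or blue.

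The 6 outer ring genes with a Nup symbol were all higher at day 2, by 1.5 to 2.51 on the log2 scale (median 1.72). They encode parts of the Y complex, the scaffold unit on both faces of the pore, which also sits at kinetochores in mitosis. Nup37 (chr10:88146976-88178395) stood at 7.29, 8.85 and 8.98 CPM in Tn, against 37.5, 42.1 and 63.7 CPM in Teff1. The groups were far apart, with a log2 fold change of 2.51 ± 0.44 (SE, n = 3 a group, adjusted p = 0.000833, edgeR). Nup43 (chr10:7667504-7678886) stood at 6.96, 8.31 and 9.94 CPM in Tn, against 34.2, 42.6 and 43.4 CPM in Teff1, a log2 fold change of 2.25 ± 0.38 (adjusted p = 0.000595, edgeR). Nup160 (chr2:90677215-90739327) stood at 60.6, 61.2 and 59.2 CPM in Tn, against 146, 233 and 175 CPM in Teff1. The lowest Teff1 library of Nup160 was thus more than 2-fold above the highest Tn library, and the log2 fold change was 1.61 ± 0.28 (adjusted p = 0.000716, edgeR). Nup133, Nup107 and Nup85 were higher by 1.83, 1.56 and 1.5. In the inner ring, which anchors the scaffold to the membrane and to the channel, 4 of 5 genes were higher (median 1.48). Nup205 (chr6:35177616-35247599) led them, at 68.9, 72.7 and 74.4 CPM in Tn, against 183, 300.4 and 314 CPM in Teff1, with a log2 fold change of 1.88 ± 0.32 (adjusted p = 0.000709, edgeR). Nup93, Nup155 and Nup188 were higher by 1.51, 1.48 and 0.93. Nup35, the least of the 5, stood at 15.3, 16.8 and 18.5 CPM in Tn, against 22.5, 23.7 and 35.4 CPM in Teff1 (log2 fold change 0.69 ± 0.38, adjusted p = 0.152, edgeR).

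The channel genes Nup62, Nup54 and Nupl1 encode the 3 partners of the central FG complex, and all 3 were higher. Nup62 (chr7:44816088-44831836) stood at 39.0, 53.3 and 49.98 CPM in Tn, against 158, 215 and 194 CPM in Teff1. No library of one state reached the other, and the log2 fold change was 1.99 ± 0.26 (adjusted p = 0.000131, edgeR). Nup54 was higher by 1.44 and Nupl1 by 0.56, so the 3 partners differed in the size of their rise. Nup98, whose precursor yields both an FG nucleoporin and the outer ring protein Nup96, stood at 64.3, 58.0 and 53.7 CPM in Tn, against 114, 90.3 and 91.6 CPM in Teff1 (0.75 ± 0.15, adjusted p = 0.00154, edgeR).

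The genes of the filaments and the basket gave a mixed picture. On the cytoplasmic face Nupl2 was higher by 1.40 and Nup88 by 0.80, while Nup214, the FG partner of Nup88, stood at 116, 114 and 102 CPM in Tn, against 100.6, 120 and 129 CPM in Teff1. These ranges overlap (log2 fold change 0.07 ± 0.17, adjusted p = 0.749, edgeR). In the basket, Nup50 was higher by 0.59 ± 0.17 (adjusted p = 0.0132, edgeR). Nup153 (chr13:46679902-46727849), the basket nucleoporin that binds import receptors, stood at 332, 309 and 240.1 CPM in Tn, against 269.8, 232 and 254 CPM in Teff1. The states overlap, and the log2 fold change was -0.22 ± 0.17 (adjusted p = 0.291, edgeR). Nup210 (chr6:91013067-91118322), a glycoprotein of the pore membrane, stood at 521, 627 and 579.6 CPM in Tn, against 535, 831 and 536 CPM in Teff1 (0.14 ± 0.21, adjusted p = 0.614, edgeR), and its sign depended on Teff1 replicate 2, without which it was -0.09. Its relative Nup210l had 2.95 to 10.8 CPM in Teff1 and 3.71 to 5.18 CPM in Tn. The 6 outer ring genes with a Nup symbol gave 0.628, 0.709 and 0.926 counts for each count of Nup153 in Tn and 1.92, 3.28 and 3.19 in Teff1, with no overlap. The level of this ratio depends on gene lengths. The size of its change also depends on them in part, since the 6 summed genes rose unequally.

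**Figure D2:**
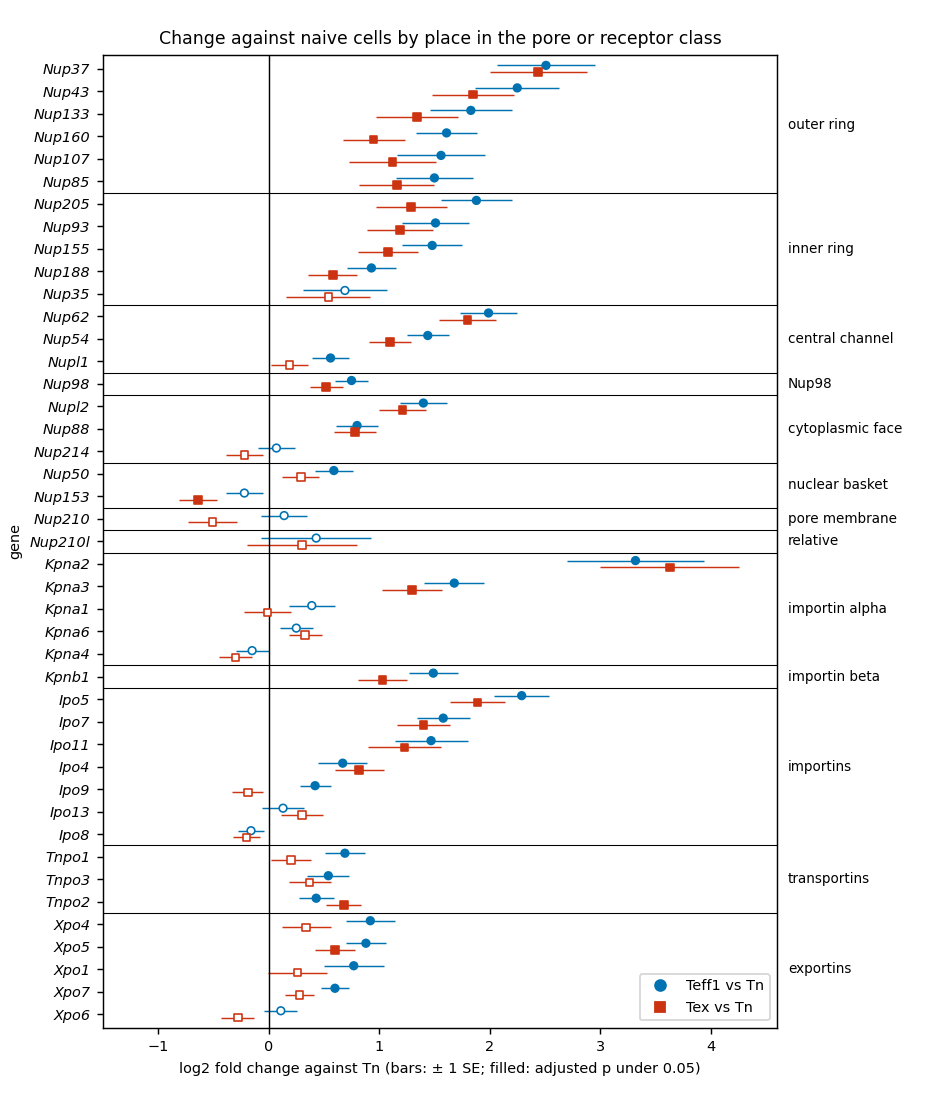
Log2 fold change against Tn (horizontal axis) of the 43 genes tested, grouped by place in the pore or receptor class, for Teff1 (blue circles) and Tex (red squares), with bars of 1 SE and filled symbols for adjusted p under 0.05. Outer ring genes lie at 0.95 to 2.51, Kpna2 lies above 3 in both, and Nup153 is filled on the left side for Tex only.

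In the importin alpha family, the adaptors that read the classical import signal, the makeup differed between states. Of its 5 members tested, Kpna2 and Kpna3 were higher at day 2, and Kpna1, Kpna6 and Kpna4 did not pass the test. Kpna2 (chr11:106988629-106999525) had the largest rise of the 43 genes. It stood at 22.5, 27.0 and 26.6 CPM in Tn, against 162, 226 and 374 CPM in Teff1, so that the mean was 10.0-fold higher (log2 fold change 3.32 ± 0.62, adjusted p = 0.00122, edgeR). Kpna3 (chr14:61365186-61439947) stood at 27.7, 37.5 and 33.9 CPM in Tn, against 79.3, 99.9 and 139 CPM in Teff1 (1.68 ± 0.27, adjusted p = 0.000501, edgeR). Kpna4 (chr3:69072221-69127092) stood at 182, 199.5 and 179 CPM in Tn, against 200.5, 151 and 153 CPM in Teff1. Its states overlap, with a log2 fold change of -0.15 ± 0.15 (adjusted p = 0.421, edgeR). Kpna1 and Kpna6 gave 0.39 ± 0.21 and 0.25 ± 0.15 (adjusted p = 0.144 and 0.194, edgeR). In shares of the family's counts, which are not corrected for gene length, Kpna2 went from 6.16, 6.67 and 7.25% in Tn to 27.4, 34.8 and 44.2% in Teff1. Kpna4 went from 49.9, 49.2 and 48.9% to 33.9, 23.2 and 18.04%. There were 0.123, 0.136 and 0.148 Kpna2 counts for each Kpna4 count in Tn and 0.807, 1.5 and 2.45 in Teff1.

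**Figure D3:**
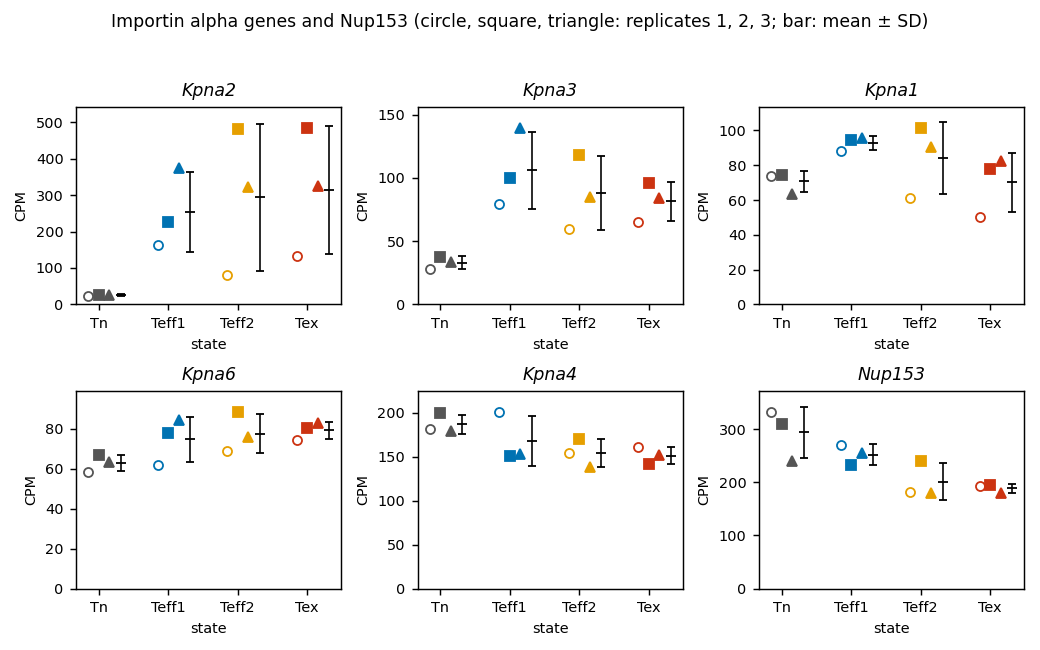
CPM (vertical axes, from 0) of the 5 importin alpha genes tested and of Nup153 in the 3 libraries of each state, with open circles for replicate 1 and the mean ± SD beside the points. Kpna2 stands at 22.5 to 27.0 CPM in Tn, against 80.5 to 483 CPM in the activated libraries, while Kpna4 stays between 139 and 200.5 CPM throughout.

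Importin beta, Kpnb1 (chr11:97159710-97187892), carries importin alpha and its cargo through the pore. It stood at 253, 305 and 264 CPM in Tn, against 690, 783 and 844 CPM in Teff1, with a log2 fold change of 1.49 ± 0.22 (adjusted p = 0.000263, edgeR). Of the 7 other importins 5 were higher. Ipo5 (chr14:120896840-120948046), an importer of ribosomal proteins among other cargo, had the smallest adjusted p of the 43 genes. It stood at 95.9, 114 and 95.5 CPM in Tn, against 416, 483 and 593 CPM in Teff1 (2.29 ± 0.25, adjusted p = 4.4e-05, edgeR). Ipo7, which also carries ribosomal proteins and histone H1, was higher by 1.58, Ipo11 by 1.47, Ipo4, a carrier of histones H3 and H4, by 0.67, and Ipo9 by 0.42. Ipo13 and Ipo8 gave 0.13 ± 0.19 and -0.16 ± 0.12 (adjusted p = 0.593 and 0.298, edgeR). Of Ipo8, the closest relative of Ipo7, each Teff1 library (70.4 to 74.1 CPM) lay below each Tn library (74.7 to 83.1 CPM).

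Transportins are importers that need no adaptor, and exportins carry cargo out. Tnpo1, the carrier of hnRNP A1, stood at 207, 211 and 193 CPM in Tn, against 302, 329 and 358 CPM in Teff1 (0.69 ± 0.18, adjusted p = 0.00823, edgeR). Tnpo3, which imports splicing factors of the SR family, was higher by 0.54 and Tnpo2 by 0.43. Xpo1, the main exporter of proteins with a leucine-rich signal, stood at 189.5, 192 and 181 CPM in Tn, against 295, 317 and 347 CPM in Teff1. The libraries did not overlap (0.77 ± 0.27, adjusted p = 0.0357, edgeR), but leaving out any 1 of the 3 Tn libraries or Teff1 replicate 2 or 3 gave an adjusted p of 0.0693 to 0.0931. Xpo4, an exporter of the translation factor eIF5A, was higher by 0.92, Xpo5, the exporter of microRNA precursors, by 0.88, and Xpo7 by 0.60. Xpo6, the exporter of actin, stood at 249.6, 226 and 222 CPM in Tn, against 218, 275 and 259 CPM in Teff1 (0.11 ± 0.15, adjusted p = 0.587, edgeR). The calls of Ipo4, Ipo9, Tnpo2 and Tnpo3 were likewise each lost when some single libraries were left out, Tnpo2 and Tnpo3 without any 1 Tn library or Teff1 replicate 2 or 3, Ipo9 without any 1 Tn library or Teff1 replicate 3, and Ipo4 without Tn replicate 1 or 3 or Teff1 replicate 2 or 3. Nup50 lost its call without Tn replicate 3, and Nupl1 without Tn replicate 3 or Teff1 replicate 3. None of the 3 Tnpo and 5 Xpo genes reached a 2-fold difference.

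The 32 calls at day 2 rest on Tn libraries that differ in RNA of other cells. The genes themselves varied little among these libraries, with a median ratio of the highest to the lowest Tn library of 1.14. Without Tn replicates 1 and 3, the median log2 fold change of the 43 genes was 0.79 against 0.80. The 1 remaining Tn library was then assumed to vary like the other groups. Fewer of the 43 genes were called in that fit, as was so over all genes tested. Kpna2 gave 3.21 in it and did not pass the test. Fewer cells of a type and less RNA per cell cannot be told apart in such bulk libraries. The 12 genes of a cell division list (Mki67, Top2a, Ccnb1 and others) were all higher, by a median of 5.20, and their sum went from 67.6 to 132 CPM in Tn to 3181 to 3752 CPM in Teff1. Their part in the rise of the pore genes was not tested.

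Of the 43 genes, 15 overlap another counted gene on the genome, from start to end with introns included. Whether exons are shared was not checked. The counting is not stated to use strand, so reads on any shared exons cannot be told apart from those of the neighbour. Most such neighbours had few counts. The larger ones were Atf5 over Nup62 (6.04 ± 2.06 CPM in Tn, 37.6 ± 30.6 CPM in Teff1, SD, n = 3), Pcmt1 over Nup43 (65.3 ± 1.81 and 84.5 ± 3.76 CPM) and Fam78a over Nup214 (538 ± 133 and 96.9 ± 11.67 CPM). Rabep1 over Nup88, Pgap2 over Nup98, Irf5 over Tnpo3 and Dok2 over Xpo7 had means of 3.73 to 73.4 CPM in the 4 states. The values of these 7 members may be uncertain for that reason.

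The rest of the transport pathway was read from 4 lists, with 37 of 38 genes tested. At day 2, 22 were higher and 2 lower, with a median log2 fold change of 0.71. Over all 14332 genes tested, 24.5% were higher and 24.4% lower, with a median of -0.06. Of the Ran cycle 5 of 6 were higher. Ran itself stood at 199, 201 and 174 CPM in Tn, against 705, 723 and 1108 CPM in Teff1 (2.14 ± 0.26, adjusted p = 8.29e-05, edgeR). Rcc1, the exchange factor that loads Ran with GTP in the nucleus, was higher by 2.90 ± 0.28 (adjusted p = 1.95e-05, edgeR), and Ranbp1 by 2.15. Of 10 pore proteins with other names 6 were higher, led by Ndc1 (2.64, held under its older symbol Tmem48), which anchors the pore in the membrane, and Aaas (1.37). Of the outer ring proteins among these 10, Seh1l was higher by 1.29 and Sec13 by 1.14, and Ahctf1 did not pass (0.17 ± 0.14, adjusted p = 0.346, edgeR). Among the receptors with other names, Xpot, the exporter of transfer RNA, was higher by 2.34, and Cse1l, which returns importin alpha to the cytoplasm, by 1.16 (adjusted p = 0.0271, and 0.055 to 0.109 without any 1 Tn library or Teff1 replicate 3, edgeR). Messenger RNA leaves the nucleus by Nxf1 and Nxt1, which act as a pair. Nxt1 was higher by 1.24, but Nxf1 was lower. Nxf1 stood at 278, 248 and 239 CPM in Tn, against 162, 183 and 194 CPM in Teff1, with no overlap, and fell by 0.51 ± 0.17 on the log2 scale (adjusted p = 0.0245, edgeR, and above 0.05 without Tn replicate 1 or Teff1 replicate 1 or 2, at 0.0627 to 0.0855). Of 15 mRNA export adaptors and helicases 7 were higher, led by Alyref (1.76) and Ddx39 (1.33), and 1, Zc3h3, fell by 0.76.

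The second comparison asks what changes from day 2 to day 5 in cells without TIM-3. None of the 43 genes passed the test between Teff2 and Teff1, with edgeR or with limma, and DESeq2 called 1, Ipo9, lower. Over all genes tested 0.537% were higher and 0.119% lower. The count at an unadjusted p under 0.05 was 0 higher and 5 lower (Ipo9, Kpnb1, Nup160, Nup210 and Xpo7). The median log2 fold change was -0.29, against 0 over all genes, and 39 of the 43 values were negative. Ipo9, a carrier of histones H2A and H2B, stood at 121, 129 and 142 CPM in Teff1 and at 86.2, 101 and 89.8 CPM in Teff2. No Teff2 library reached the Teff1 range, yet the adjusted p was 0.139 (log2 fold change -0.50 ± 0.14, edgeR). Kpnb1 went from 690, 783 and 844 CPM to 423, 721 and 498 CPM, with overlap (-0.50 ± 0.22, adjusted p = 0.38, edgeR). Ipo9, Nup210 and Xpo7 were the 3 of 43 genes whose Teff2 libraries all lay below the Teff1 libraries, and 0 lay wholly above. Of all genes tested 6.19% lay wholly below and 8.39% wholly above, so the share below is near that of all genes. Standard errors of 0.12 to 0.57 set what this comparison can show. The median depended on replicate 1 and replicate 2 of Teff2, being -0.12 without the former and -0.53 without the latter.

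Mean levels peaked at day 2 for most of these genes. The highest of the 4 state means was that of Teff1 for 34 of the 43 genes (79.1%), against 22.4% of all genes tested, and the lowest was that of Tn for 35 (81.4%), against 42.1%. The mean was highest in Tex for 5, all of them receptors, and in Tn for 3, which is a description of means whose neighbours mostly did not differ beyond their spread.

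Both day 5 states were also set against Tn. These comparisons share the Tn libraries, so their values are given side by side and are not independent. In Teff2, 23 genes were higher and 1 lower than in Tn, against 25.7% and 23.3% of all genes tested. The median log2 fold change was 0.66, against 0 over all genes. In Tex, 24 were higher and 1 lower, against 27.3% and 25.7%, with a median of 0.60 against 0. By role, all 6 outer ring genes with a Nup symbol were higher in Teff2 (1.0 to 2.43) and in Tex (0.95 to 2.44). Of the 5 inner ring genes 3 were higher in Teff2 (Nup93, Nup155 and Nup205) and 4 in Tex, where Nup188 gave 0.58 (adjusted p = 0.0444, edgeR) after 0.54 in Teff2 (adjusted p = 0.0629). The Nup188 call in Tex was lost without any 1 Tn library or Tex replicate 2 or 3. It was also lost with the size factors of DESeq2, with upper-quartile scaling and with limma. Of the outer ring, Nup107 lost its call in both states without any 1 Tn library, without Teff2 replicate 2 or 3 and without Tex replicate 2 or 3, and Nup85 lost its call in Teff2 without any 1 Tn library or Teff2 replicate 2 and in Tex without Tex replicate 2. Nup107 also lost its call with limma in both states and with no filter on low counts in Teff2. Ipo4 lost its call in Teff2 without Tn replicate 1 or 3 or Teff2 replicate 1 or 2, and Xpo5 in Tex without Tn replicate 1. The call of Ipo4 in Teff2 was also lost with upper-quartile scaling. In both states Nup62, Nup54, Nupl2, Nup88 and Nup98 were higher, and Nupl1, at 0.23 and 0.19, did not pass. Kpnb1 was higher by 1.0 in Teff2 and 1.03 in Tex, and 4 of the 7 other importins were (Ipo4, Ipo5, Ipo7 and Ipo11). Of the 3 Tnpo genes only Tnpo2 was higher, by 0.66 and 0.68, and of the 5 Xpo genes only Xpo5, by 0.68 and 0.60, while Tnpo1, Tnpo3, Xpo1, Xpo4 and Xpo7 gave 0.20 to 0.54 without passing the test. Teff2 did not overlap Tn for 29 genes, 26 above and 3 below, and Tex did not for 34, 29 above and 5 below. Of all genes tested, 29.8% lay wholly above and 29.6% wholly below Tn in Teff2, and 32% and 31.3% in Tex.

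Kpna2 was also the largest rise at day 5. It stood at 80.5, 480.0 and 321 CPM in Teff2 (3.53 ± 0.63, adjusted p = 0.000857, edgeR) and at 134, 483 and 324 CPM in Tex (3.63 ± 0.63, adjusted p = 0.000642, edgeR). All 6 libraries lay above the Tn range, although they spread 5.96-fold in Teff2 and 3.62-fold in Tex. Its share of importin alpha counts was 38.1 ± 16.7% in Teff2 and 42.5 ± 13.9% in Tex, against 6.70 ± 0.546% in Tn (SD, n = 3). Ipo5 stood at 252, 478 and 352 CPM in Teff2 and at 292, 452 and 387 CPM in Tex. It was higher than in Tn by 1.82 ± 0.25 and 1.89 ± 0.25 (adjusted p = 0.000152 and 0.000106, edgeR). Nup37, Nup43 and Nup62 followed, at 2.43, 1.72 and 1.67 in Teff2 and 2.44, 1.85 and 1.80 in Tex.

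Nup153 was the 1 gene that fell. It stood at 182, 241 and 180.1 CPM in Teff2 and at 193, 194 and 179 CPM in Tex, against 240.1 to 332 CPM in Tn. In Tex each library lay below each Tn library, and Nup153 fell by 0.64 ± 0.17 on the log2 scale (adjusted p = 0.00733, edgeR), a call that held in each alternative run. In Teff2 it fell by 0.55 ± 0.17 (adjusted p = 0.0177, edgeR), with 1 Teff2 library just above the lowest Tn library. That call was lost without Tn replicate 1 or 2 or Teff2 replicate 1 or 3 (adjusted p = 0.0563 to 0.0766, edgeR). Of the genes near it, Tpr, which forms the basket filaments, fell by 0.36 ± 0.14 in Tex (adjusted p = 0.0486, edgeR), and leaving out any 1 library of the 2 states gave 0.0677 to 0.159. Nup210 in Tex stood at 317, 441 and 456 CPM, below each Tn library (521 to 627 CPM), at -0.51 ± 0.22 (adjusted p = 0.0641, edgeR). Kpna4 stood at 139 to 170.0 CPM over the 6 day 5 libraries, each below the Tn libraries, at -0.28 ± 0.15 in Teff2 and -0.30 ± 0.15 in Tex (adjusted p = 0.152 and 0.11, edgeR). With upper-quartile scaling, which shifts the median of all genes from 0 to -0.11 and -0.12, Kpna4 was called lower in both, and Ipo8, Nup210 and Xpo6 in Tex.

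In the wider pathway, 18 of 37 genes were higher and 2 lower in Teff2, and 18 higher and 4 lower in Tex (Nxf1, Zc3h3, Tpr and Thoc2). Over all genes tested, 25.7% were higher and 23.3% lower in Teff2, and 27.3% and 25.7% in Tex. The call of Thoc2 (-0.47, adjusted p = 0.0383, edgeR) was lost without any 1 Tn library or Tex replicate 2 (adjusted p = 0.0752 to 0.167). The tRNA exporter Xpot was higher by 1.97 in Teff2 and 2.06 in Tex. Rcc1 was higher by 2.51 and Ran by 2.00 in Tex, while Nxf1 and Zc3h3 each fell by 0.84. Cse1l gave 0.58 ± 0.38 in Tex (adjusted p = 0.219, edgeR).

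The third comparison sets cells with TIM-3 against cells without it at day 5. None of the 43 genes differed between Tex and Teff2, in the fit of all libraries (edgeR, DESeq2 and limma, 0 at an unadjusted p under 0.05). Over all genes tested 0.00698% were higher and 0% lower. Equal replicate numbers of these 2 states deviated together, so they were also compared as 3 pairs, which lowers the standard errors to 0.07 to 0.19. Within pairs 0 of the 43 genes were called (edgeR), with 1 higher (Ipo13) and 1 lower (Kpna1) at an unadjusted p under 0.05. Over the 13096 genes of that fit 1.06% were higher and 0.825% lower. All 43 fitted differences lay within 0.5 on the log2 scale in either fit. The libraries of the 2 states overlapped for each of the 43 genes, while 2.46% of all genes tested lay wholly above and 2.35% wholly below in Tex.

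Kpna1 showed the smallest adjusted p within pairs. It stood at 61.3, 101 and 90.7 CPM in Teff2 and at 50.5, 77.8 and 82.2 CPM in Tex, lower in each of 3 pairs, with a log2 fold change of -0.27 ± 0.08 (adjusted p = 0.135, edgeR). Ipo13 was higher in each of 3 pairs, at 0.19 ± 0.08 (adjusted p = 0.268, edgeR). Nup62 differed by 0.12, 0.14 and 0.13 in the 3 pairs (adjusted p = 0.438, edgeR). Kpna2 differed by 0.73 in pair 1 and by 0.01 in pairs 2 and 3. The pairs differed from each other as a whole. Of the 43 genes, 36 were higher in Tex in pair 1 (median 0.15), 8 in pair 2 (median -0.17) and 25 in pair 3 (median 0.03), while the medians of all genes were 0.01, 0 and 0.01. Over all genes tested, 51.1, 49.5 and 51.7% were higher in Tex in pairs 1, 2 and 3. Of the 43, 8 had the same positive sign in the 3 pairs and 6 the same negative sign. The share of all genes with the same sign in the 3 pairs was not counted, so these numbers are a description only.

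**Figure D4:**
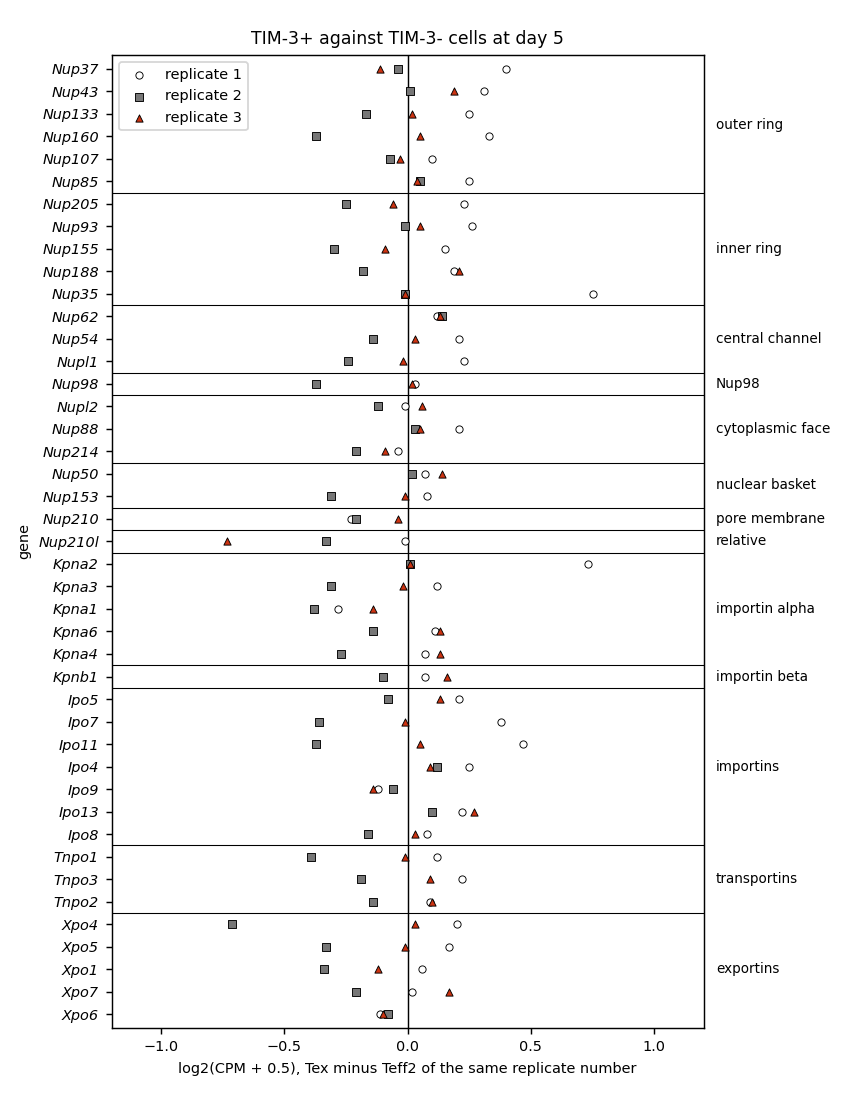
Difference in log2(CPM + 0.5) between the Tex and the Teff2 library of the same replicate number (horizontal axis) for the 43 genes tested, with circles, squares and triangles for replicates 1, 2 and 3. Circles lie mostly to the right of 0 and squares mostly to the left, and the 3 points of Nup62 lie together at 0.12 to 0.14.

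Replicate 1 of each activated state stood low in these genes. It lay below both other replicates for 35 of 43 genes in Teff1, 37 in Teff2 and 33 in Tex, against 17 in Tn. Of all 14332 genes tested, this held for 5247 in Teff1, 5415 in Teff2, 5388 in Tex and 5335 in Tn. For the 43 genes the median difference from the mean of replicates 2 and 3 was -0.32, -0.55 and -0.36 on the log2 scale in Teff1, Teff2 and Tex. It was 0.01 in Tn, and the medians of all genes lay between 0 and 0.02. Kpna2 was lowest, at -2.28 in Teff2 and -1.56 in Tex. The cell division genes differed in the same libraries, by medians of -2.31 in Teff2 and -1.79 in Tex, but by -0.36 in Teff1 and 0.51 in Tn. In Teff1 replicate 1, 9 of the 12 lay below both other replicates. The sum of the 12 was yet highest there, at 3752 CPM, against 3181 and 3569 CPM in Teff1 replicates 2 and 3. Their sum was 986 CPM in Teff2 replicate 1 and 4202 and 3640 CPM in replicates 2 and 3. In Tex it was 1235 CPM in replicate 1 and 3843 and 3533 CPM in the others, and their part in the spread of the pore genes was not tested. Without replicate 1 of the 3 activated states, 35 of the 43 genes were higher in Teff1, 33 in Teff2 and 30 in Tex than in Tn, against 32, 23 and 24 with it. Calls over all genes rose as well. Without it 4205, 4497 and 4746 of 14798 were higher, and with it 3515, 3677 and 3918 of 14332. Among the 43, the genes gained in Teff2 were Kpna1, Kpna6, Nup188, Nup35, Nupl1, Tnpo1, Tnpo3, Xpo1, Xpo4 and Xpo7.

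**Figure D5:**
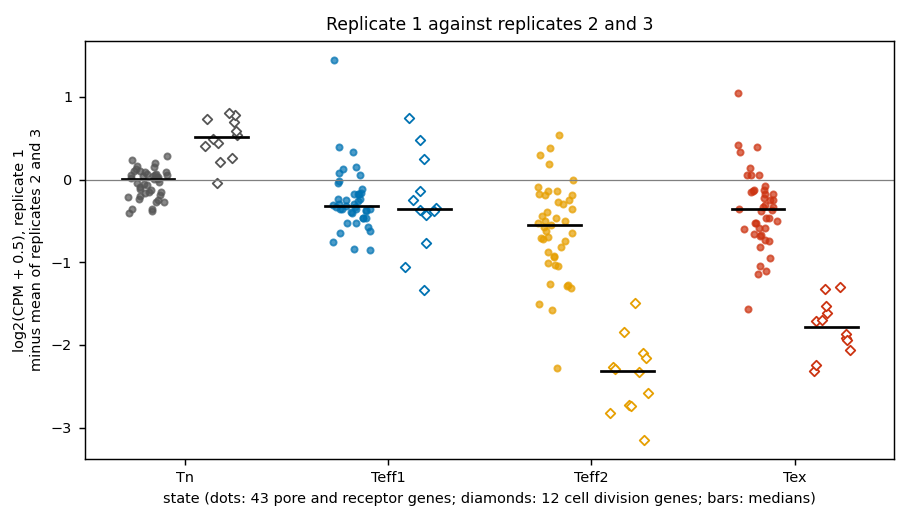
Difference between replicate 1 and the mean of replicates 2 and 3 in log2(CPM + 0.5) (vertical axis) in each state, with dots for the 43 genes tested, diamonds for the 12 cell division genes and bars for medians. The dots centre at 0.01 in Tn and at -0.32, -0.55 and -0.36 in Teff1, Teff2 and Tex, and the diamonds lie lowest in Teff2 and Tex.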

How the data were processed

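RNA-seq of 12 libraries was read from a matrix of raw counts per gene symbol that the authors deposited, whole numbers with totals of 14.67 to 21.16 M. A second deposited matrix holds the authors' normalized log2 values, whose transformation is not given in the sources used here, and it served as an alternative. The assembly mm10 and the tools HISAT2, HTSeq and DESeq2 are named per the submitters' processing notes, without settings. The 4 Hi-C samples were not analysed here.

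Counts were tested with edgeR 4.0.16 in R 4.3.3 (TMM factors, filter by expression, quasi-likelihood F test with robust dispersions, all 12 libraries, state as the term), with Benjamini-Hochberg adjustment over the 14332 genes kept and calls at an adjusted p under 0.05. DESeq2 1.42.0 and limma 3.58.1 were alternatives, besides other scalings, no filter, fewer libraries and the replicate number as a block. Standard errors are the log2 fold change divided by the root of F. Folds are ratios of mean CPM. Only the unpaired edgeR fit of Teff1 against Tn was tested on simulated counts, with far fewer genes changed than were called here. The paired fit and the alternatives were not tested in this way.

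Deviations from state means correlated for equal replicate numbers of Tex and Teff2 (r = 0.85, 0.78 and 0.75 across genes, at most 0.12 for unequal numbers). These were treated as 3 pairs, from the data and not from the labels, in a fit on the 6 day 5 libraries (13096 genes). For Teff1 and Tn r was 0.14, 0.13 and 0, for Teff2 and Teff1 0.51, 0.24 and 0.03, for Teff2 and Tn 0.01, 0.08 and 0.08, and for Tex and Tn 0.07, 0.14 and 0.03. These were not paired.

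The genes and lists were chosen with earlier results of these data known. Genes were named for the 5 largest called changes each way at 10 CPM or more, as the most abundant of a class, as importin alpha genes, and for the 2 largest called changes each way of a pathway list, plus Ran and Cse1l. Others named with values (such as Nup35, Nup214, Ipo8, Xpo6, Seh1l, Sec13 and Ahctf1) were chosen after their values were seen, to account for the rest of a class. Coordinates, overlaps and promoters are from RefSeq tables of GRCm38.p6. Levels per length and protein features were planned and not made, since no exon lengths or proteins were used here. Levels of different genes are thus set together only as shares and ratios of counts, without correction for length. The choice of the most abundant of a class used CPM, likewise without it. How reads of near-identical copies were counted is not given in the sources used here.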

Additional observations from a re-analysis of the deposited data

How the results depend on the processing

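The counts of higher genes kept their size (within 1.5 times) under other scalings, tests and filters, the replicate block and single libraries left out. The size of the rise depended on the processing. In the main fit the median log2 fold change of the 43 genes was 0.80, 0.66 and 0.60 in Teff1, Teff2 and Tex. With upper-quartile scaling it was 0.66, 0.54 and 0.48, and with no filter 0.90, 0.70 and 0.66. With limma on the authors' normalized values it was 0.56, 0.44 and 0.42. Without Tn replicates 1 and 3 together, which leaves 1 Tn library, they fell to 11 in Teff1, 7 in Teff2 and 7 in Tex, and the lower count in Teff2 to 0. Upper-quartile scaling moved the median of all genes in Teff1 from -0.06 to -0.20 and kept 27 of the 32 calls (lost Ipo4, Ipo9, Tnpo2, Tnpo3 and Xpo1). It gave 2 lower genes in Teff2 and 5 in Tex against Tn. Over all 14332 genes it called 3763 and 4133 lower in these, and 3024 higher in Teff1. Leaving out 1 library kept 25 to 32 of the 32 calls in Teff1 against Tn, 20 to 22 of 23 in Teff2 and 21 to 24 of 24 in Tex. Over all genes, 2919 to 3563, 3046 to 3820 and 3324 to 3953 were then higher, of 14598 to 15074 tested. The lower count of 1 in Teff2 against Tn (Nup153) ranged from 0 to 1 then, and was 0 without replicate 1 of the 3 activated states. Between Teff2 and Teff1 DESeq2 called 1 lower gene (Ipo9), and 126 lower over all genes. Using only the 2 states compared gave 2 lower genes in Tex against Tn (Nup153 and Nup210), and 3659 of 13741 over all genes. The cause was not tested in these cases.

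With the replicate block on all 12 libraries, 32, 24 and 25 genes were higher in Teff1, Teff2 and Tex than in Tn, and 0, 1 and 2 lower. With the block on the 2 states compared, 33, 23 and 24 were higher and 0, 0 and 2 lower. The block gave 0 calls between Teff2 and Teff1 and between Tex and Teff2. For the unpaired states it is a number shared and not a known pairing.

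Of 1488 alternative values for single genes, 1385 kept direction and side of the threshold, 71 lost and 20 gained a call, and 12 turned sign, none of a called result. These were Nup210 in Teff1 (0 with upper-quartile scaling and without Tn replicates 1 and 3, -0.09 without Teff1 replicate 2), Nup210l without replicate 1 (-0.21 and -0.27 in Teff1, -0.09 and -0.16 in Tex) and Kpna1 in Tex (0.05 with no filter, 0.27 and 0.19 without replicate 1, and 0.02 without Tn replicate 1 or 2). With each library left out in turn, Nup210 in Teff1 lay between -0.09 and 0.26, Nup210l between -0.27 and 0.78 in Teff1 and between -0.16 and 0.58 in Tex, and Kpna1 in Tex between -0.12 and 0.19. Depth limits Kpna7 and Nup62cl, which were near 0 counts. Levels per length were not run, and shares of importin alpha counts do not change with the library totals.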
